A study of Homo sapiens with 27 samples.

Results

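Solute carriers (SLC) are membrane proteins that move ions, sugars, amino acids, lipids, nucleotides, metals and vitamins across the plasma membrane and the membranes of organelles. In the intestinal epithelium, carriers of the apical and basolateral membranes work with channels and pumps to absorb nutrients and to absorb or secrete salt and water. The genes described here are those whose platform symbol is SLC followed by a number and that 2 or more of the 27 arrays detected (p under 0.01). SLC1A5, SLC2A1, SLC2A3, SLC3A2, SLC7A1, SLC7A5, SLC7A11, SLC10A2, SLC38A2, SLC40A1, SLC51A and SLC51B were set aside. Of 383 annotated SLC symbols, 12 were those set aside, 128 were not detected on 2 arrays and 243 remained, out of 13510 genes tested. The members were thus chosen by their detection p-values. The 14 members detected on exactly 2 arrays had mean levels of 6.61 to 6.70 in the authors' log2 matrix, and the 38 genes detected on only 1 array had 6.49 to 6.70. Of the 243 genes, 136 were detected on all 27 arrays and 64 on under 14, so a gene present late in only 1 line could enter through that line.

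The cells were LS174T, an established human colorectal carcinoma cell line. The SNAI1 line carries a doxycycline-inducible mSnail1-HA transgene and the LEF1 line a doxycycline-inducible mLef1-HA transgene, both mouse proteins with an HA tag in cells named pN1-LS174T. The control line is labelled as having no overexpression. All arrays after 0 h come from cells given 0.1 µg/ml doxycycline, renewed after 48 h. SNAIL1 is a zinc finger repressor that binds E-box sequences and drives epithelial-mesenchymal transition, and LEF1 is a DNA-binding partner of beta-catenin. The SNAI1 line had 11 arrays (2 each at 0, 6, 48 and 96 h, 1 each at 3, 24 and 72 h), the LEF1 line 7 (2 each at 0, 6 and 72 h, 1 at 24 h) and the control line 9 (2 each at 0 and 6 h, 1 each at 3, 24, 48, 72 and 96 h). The comparisons ask which transporter genes changed when SNAIL1 was induced and which of them also changed when LEF1 alone was induced. The labels give neither the number of clones in a line nor whether replicates were separate cultures, so p-values measure the spread between these samples, which may be technical.

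Levels are log2 normalized intensities, which serve to compare arrays for 1 gene and not genes with each other. A late change is the mean over 24, 48, 72 and 96 h minus the 0 h mean in the SNAI1 line (24 and 72 h in the LEF1 line), less the same quantity in the control line. A gene was called higher or lower where limma's p, adjusted by Benjamini and Hochberg's method over all 13510 genes, was under 5%. The arrays fall into 2 sets by the form of their detection p. Set 2 holds all 7 LEF1 arrays, control 0 h replicate 2 and control 6 h replicate 1, with 14766 to 15918 detected probes, and set 1 holds the other 18, with 18241 to 19683. The control 0 h mean thus joins 1 array of each set, while the control arrays from 24 h on are all in set 1. A difference between the sets can therefore enter every late change taken relative to the control line. Of 11 measured colorectal epithelial markers, 10 were detected on all 9 control arrays and 7 on all 27, while KRT20 was detected on 7. Of 12 measured markers of other cell types, 6 were detected on 2 or fewer arrays, PECAM1 on none, and CD68 and ALB on all 27. LYZ was detected on 15 and FAP on 23, including all 9 control arrays. FAP averaged 8.19 in the control line and 4.88 late in the SNAI1 line. The probe for human SNAI1 was detected on no array, and the transgene is the mouse gene, so the probe checks nothing. The human LEF1 probe averaged 11.2 late in the SNAI1 line against 6.26 at its 0 h, and 8.28 late in the LEF1 line against 4.88 at its 0 h. The LEF1 transgene is also the mouse gene, and whether this probe reads it was not tested. These levels therefore do not measure transgene induction or compare total LEF1 between the lines.

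After 24 h or longer of SNAIL1 induction, 22 solute carrier genes fell and 5 rose relative to the control line. The genes that fell included those for fatty acid uptake (SLC27A2), sodium-proton exchange (SLC9A2), choline-like transport (SLC44A3), glucose uptake (SLC5A1), fructose uptake (SLC2A5) and chloride loading (SLC12A2). The largest rise was in SLC7A8, a neutral amino acid transporter. The called genes were 11.1% of the 243 (9.05% lower, 2.06% higher), against 8.68% of all genes tested (4.79% lower, 3.89% higher). The median change was -0.10 on the log2 scale over the members and 0.02 over all genes. Among the 136 members detected on every array, 12 fell and 3 rose. The calls by class were 6 lower of 29 carriers of monocarboxylates, lipids and organic ions, 5 lower and 1 higher of 26 carriers of amino acids and peptides, and 3 lower of 36 mitochondrial carriers. Of 15 carriers of sugars and polyols 2 were lower, and of 22 carriers of transition metals 1 was higher. No gene was called among 8 carriers of amines, osmolytes and vesicular substrates or among 11 genes with no class assigned. SLC29A4, a monoamine transporter called higher, is counted by its family with the nucleoside carriers. In these bulk samples fewer cells of a type and less RNA per cell cannot be told apart. Of the 11 epithelial markers, 7 were lower late in the SNAI1 line (median -1.41), where 4.79% of all genes were lower. In the LEF1 line 2 of these markers were lower (median -0.77), where 0.266% of all genes and no solute carrier gene were called lower. The part of the markers in the transporter changes was not tested.

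**Figure D1:**
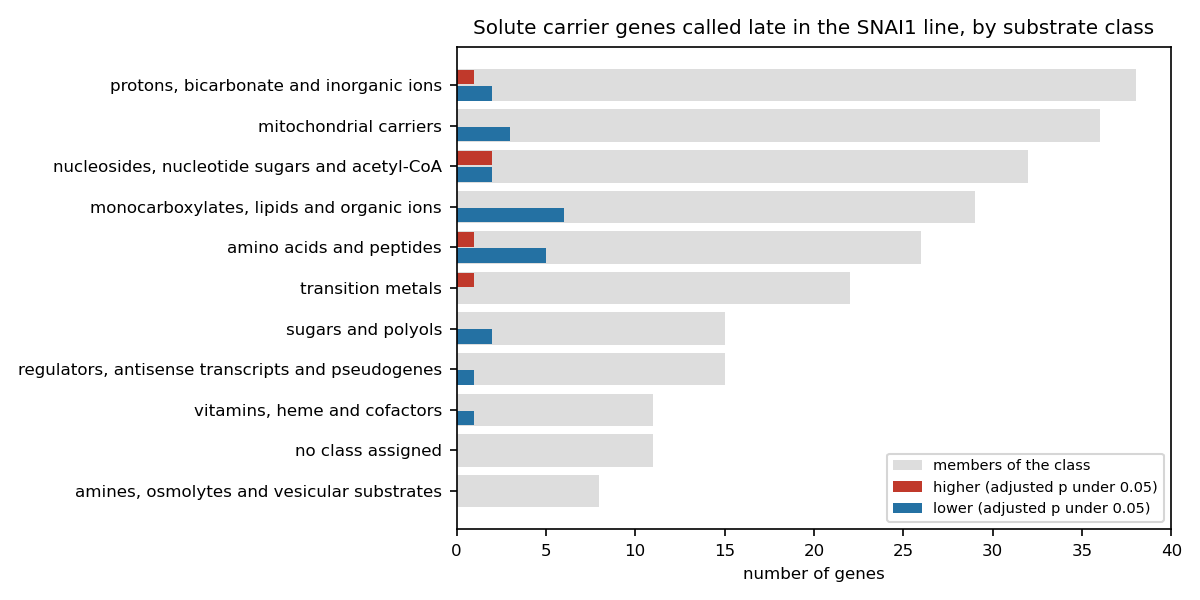
Number of solute carrier genes per substrate class (grey) and number called higher (red) or lower (blue) late in the SNAI1 line relative to the control line, adjusted p under 0.05 in limma. The class of monocarboxylates, lipids and organic ions holds 6 lower genes of 29, and no class holds more than 2 higher genes.

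Among carriers of lipids and organic ions, SLC27A2 encodes a very-long-chain fatty acid transporter and acyl-CoA synthetase. Its level was 4.61 to 6.17 (median 5.36) on the 6 late arrays of the SNAI1 line, against 9.96 and 9.87 at 0 h in that line and 9.78 to 10.34 (median 9.97) on the 9 control arrays. Every late array lay far below every 0 h and control array. The late change was -4.39 (SE 0.399, adjusted p = 1.44e-05 in limma), a 20.9-fold decrease. Its size depended on the processing, with -4.5 to -2.98 over 16 other settings. SLC27A2 was the only member called at 24 h relative to the control line (-3.80, SE 0.576, adjusted p = 0.0151 in limma). SLC44A3, a member of the choline transporter-like family, read 4.75 to 6.18 (median 5.07) late in the SNAI1 line, against 8.21 and 7.98 at its 0 h and 7.87 to 8.45 in the control line. These groups did not overlap, and the change was -2.90 (SE 0.327, adjusted p = 6.33e-05 in limma), a 7.46-fold decrease, with the probe detected on 3 of the 6 late arrays. SLC27A5, which encodes a bile acyl-CoA synthetase, read 6.59 to 8.71 (median 7.37) late in the SNAI1 line, against 9.30 and 8.98 at its 0 h and 8.90 to 10.10 in the control line. Its change was -1.72 (adjusted p = 0.000894 in limma), and the control line read highest at 96 h. SLC16A14, an orphan of the monocarboxylate transporter family (-1.46), SLC22A23, an orphan of the organic ion transporter family (-1.59, adjusted p = 0.0499 in limma), and SLC22A5, which encodes the carnitine transporter OCTN2 (-1.17, adjusted p = 0.0475 in limma), were the other 3 of the class. Second probes of SLC16A14 (-0.57, adjusted p = 0.418 in limma, detected on 7 arrays) and SLC22A23 (-0.64, adjusted p = 0.389 in limma, detected on 27) did not pass. SLC22A23 missed the threshold in 15 of 27 fits with 1 array left out and SLC22A5 in 18, whereas SLC27A2 and SLC44A3 missed it in none.

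Promoter windows of the 3 genes with the largest decreases are printed because SNAIL1 binds the E-box letters CAGGTG, which on the other strand read CACCTG. The windows run from 250 bases before to 50 after the RefSeq start on GRCh38.p14, 5′ to 3′ on the gene's strand, with matches in capitals: SLC27A2 at chr15:50181946-50182245 (plus strand), SLC6A20 at chr3:45796487-45796786 (minus strand) and SLC9A2 at chr2:102619303-102619602 (plus strand).
SLC27A2: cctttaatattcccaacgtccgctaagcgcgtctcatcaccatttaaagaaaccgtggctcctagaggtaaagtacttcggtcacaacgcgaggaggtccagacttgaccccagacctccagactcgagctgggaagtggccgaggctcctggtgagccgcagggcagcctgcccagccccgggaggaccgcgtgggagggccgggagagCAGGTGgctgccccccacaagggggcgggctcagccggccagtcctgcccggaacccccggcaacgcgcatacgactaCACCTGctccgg
SLC6A20: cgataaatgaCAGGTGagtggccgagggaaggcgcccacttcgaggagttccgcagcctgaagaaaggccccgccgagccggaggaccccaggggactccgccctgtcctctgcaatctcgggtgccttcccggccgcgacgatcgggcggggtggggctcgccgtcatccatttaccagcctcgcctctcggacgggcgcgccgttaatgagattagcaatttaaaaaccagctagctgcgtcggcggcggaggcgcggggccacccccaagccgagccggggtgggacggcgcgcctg
SLC9A2: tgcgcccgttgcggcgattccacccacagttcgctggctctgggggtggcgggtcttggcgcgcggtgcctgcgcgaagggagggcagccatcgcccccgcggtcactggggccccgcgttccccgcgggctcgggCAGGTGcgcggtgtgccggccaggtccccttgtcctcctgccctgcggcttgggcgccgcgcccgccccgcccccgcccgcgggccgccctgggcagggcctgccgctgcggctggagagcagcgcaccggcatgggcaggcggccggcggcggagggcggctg
Counting the first transcribed base as 1, the matches start at -40 and 39 in SLC27A2, at -240 in SLC6A20 and at -114 in SLC9A2. Windows were found for 20 of the 22 lower genes, and 9 of these 20 (45%) held the letters on either strand. The share was 0 of 5 for the higher genes, 50 of 177 (28.2%) for members not called and 6571 of 27305 (24.1%) for all genes of the window table. That table also holds genes that were not tested here. A match in a window is not a bound site, and binding was not measured here.

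Among carriers of protons and inorganic ions, SLC9A2 encodes the apical sodium-proton exchanger NHE2. It read 5.16 to 6.82 (median 5.50) late in the SNAI1 line, against 8.96 and 8.84 at its 0 h and 8.89 to 9.40 (median 9.03) in the control line. The groups did not overlap and the change was -3.02 (SE 0.294, adjusted p = 2e-05 in limma), an 8.09-fold decrease. SLC12A2 encodes NKCC1, the basolateral sodium-potassium-chloride cotransporter that loads secretory cells with chloride. It read 8.84 to 10.40 (median 9.34) late in the SNAI1 line, against 11.73 and 11.32 at its 0 h and 11.50 to 11.92 (median 11.72) in the control line. Here too every late array lay below all the others, with a change of -2.04 (SE 0.238, adjusted p = 8.65e-05 in limma). A second SLC12A2 probe changed by -1.38, which did not pass (adjusted p = 0.192 in limma). The 1 ion carrier called higher was SLC26A2, a sulfate transporter, at 6.12 to 7.14 (median 6.67) late in the SNAI1 line, against 5.92 and 5.50 at its 0 h and 5.45 to 6.85 (median 6.03) in the control line. The groups overlapped, since control 0 h replicate 2, at 6.85, read higher than 4 of the 6 late arrays. Its change was 1.70 (SE 0.356, adjusted p = 0.00732 in limma), and within array set 1 alone it was 1.30 (adjusted p = 0.0752 in limma).

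Among carriers of amino acids, SLC6A20 encodes a sodium-dependent transporter of proline and other imino acids. It read 4.55 to 6.22 (median 5.04) late in the SNAI1 line, against 8.24 and 8.43 at its 0 h and 6.10 to 8.96 (median 8.60) in the control line. The late arrays lay below the SNAI1 0 h arrays, while the control 0 h pair was split by array set, at 8.96 in set 1 and 6.10 in set 2. The change was -3.97 (SE 0.881, adjusted p = 0.011 in limma), and it was -2.54 (adjusted p = 0.0552 in limma) without control 0 h replicate 2. Further SLC6A20 probes changed by -2.49 (adjusted p = 0.0141 in limma) and -1.38 (adjusted p = 0.0654 in limma). SLC1A1, which encodes the glutamate and aspartate transporter EAAT3, read 4.46 to 4.97 late in the SNAI1 line, against 6.58 and 6.44 at its 0 h and 6.37 to 6.93 in the control line. The groups did not overlap, 1 of 6 late arrays detected the probe, and the change was -1.83 (SE 0.347, adjusted p = 0.0038 in limma). SLC3A1 encodes rBAT, the heavy subunit of the cystine and dibasic amino acid transporter. It read 4.35 to 5.73 (median 4.47) late in the SNAI1 line, against 6.33 and 6.53 at its 0 h and 5.13 to 6.99 (median 6.50) in the control line. Its change was -2.32 (SE 0.632, adjusted p = 0.0341 in limma), and within array set 1 it was -1.42 (adjusted p = 0.11 in limma), since the control 0 h arrays read 6.95 in set 1 and 5.13 in set 2. SLC43A2, a transporter of large neutral amino acids (-1.38, adjusted p = 0.0355 in limma), and SLC16A10, the aromatic amino acid transporter TAT1 (-1.32, adjusted p = 0.0431 in limma), completed the 5 lower genes. Among 16 other settings SLC16A10 missed the threshold in 10 and SLC43A2 in 7.

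SLC7A8 was the amino acid carrier that rose. It encodes LAT2, the light chain of an exchanger of neutral amino acids. It read 6.35 at 24 h, 7.81 and 7.76 at 48 h, 9.77 at 72 h and 9.02 and 9.36 at 96 h in the SNAI1 line, against 5.49 and 5.46 at 0 h in that line. The 9 control arrays lay between 4.68 and 5.60 (median 5.23), so no late array overlapped with them. The change was 2.61 (SE 0.414, adjusted p = 0.00109 in limma), a 6.09-fold increase, and it stayed past the threshold in all 16 other settings and all 27 fits with 1 array left out.

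Both called carriers of sugars fell. SLC5A1 encodes SGLT1, the sodium-dependent glucose and galactose transporter of the brush border. It read 4.46 to 5.66 (median 4.74) late in the SNAI1 line, against 7.55 and 7.71 at its 0 h and 7.50 to 8.31 (median 7.97) in the control line. The change was -2.59 (SE 0.406, adjusted p = 0.000981 in limma), with no overlap between the groups and detection on 4 of 6 late arrays. SLC2A5 encodes GLUT5, the fructose transporter, and read 4.38 to 4.91 (median 4.55) late in the SNAI1 line, against 5.59 and 6.25 at its 0 h and 5.66 to 6.95 in the control line. None of the 6 late arrays and both 0 h arrays detected it, so within the SNAI1 line it was at least 2.35-fold lower late than at 0 h (adjusted p = 0.00365 in limma for the change relative to control). The bound uses the bright group's mean over its replicates and, on each late array, the higher of the gene's own signal and the lowest signal among detected probes. Within the SNAI1 line the measured means were 4.63 late and 5.92 at 0 h.

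Mitochondrial carriers were called lower 3 times of 36, with a class median of -0.17, against 4.79% lower and a median of 0.02 over all genes. SLC25A4 encodes ANT1, an ADP/ATP exchanger of the inner mitochondrial membrane, and read 9.91 to 10.30 (median 10.10) late in the SNAI1 line, against 11.52 and 11.67 at its 0 h and 11.45 to 11.82 in the control line. No late array overlapped with the 0 h or control arrays, and the change was -1.39 (SE 0.245, adjusted p = 0.00224 in limma). A second SLC25A4 probe gave -1.82 (adjusted p = 0.00601 in limma). SLC25A10, the dicarboxylate carrier, read 7.72 to 9.67 (median 8.43) late in the SNAI1 line, against 10.13 and 10.02 at its 0 h and 8.71 to 10.02 in the control line. The lowest SLC25A10 control level was the 96 h array, which overlapped with late SNAI1 arrays, and the change was -1.51 (SE 0.318, adjusted p = 0.00782 in limma). SLC25A23, an ATP-magnesium/phosphate carrier, changed by -0.85 (SE 0.235, adjusted p = 0.0367 in limma).

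The class of nucleoside and nucleotide sugar carriers held 2 lower and 2 higher genes of 32. The 2 higher include SLC29A4, a monoamine transporter placed there by its family. SLC29A2 encodes the equilibrative nucleoside transporter ENT2 and read 5.69 to 7.35 (median 6.24) late in the SNAI1 line, against 8.73 and 8.79 at its 0 h and 8.40 to 9.52 in the control line. The groups did not overlap and the change was -2.02 (SE 0.369, adjusted p = 0.00288 in limma). SLC35F2 also fell (-1.11, adjusted p = 0.0115 in limma), and its second probe gave -1.59 (adjusted p = 0.0253 in limma). SLC35A5, a nucleotide sugar transporter family member, read 9.17 to 10.17 (median 9.63) late in the SNAI1 line, against 8.71 and 8.36 at its 0 h and 8.49 to 9.36 in the control line. Its change was 1.32 (SE 0.288, adjusted p = 0.00957 in limma), and only the 24 h array of the SNAI1 line lay within the control range. SLC29A4 encodes PMAT, a plasma membrane monoamine transporter of the same family as SLC29A2. In the SNAI1 line it read 4.95 at 24 h, 6.71 and 6.72 at 48 h, 7.78 at 72 h and 7.99 and 8.08 at 96 h, against 4.55 and 4.79 at 0 h. The control line, however, read 6.05 and 6.92 at 0 h, 7.05 at 72 h and 7.89 at 96 h, so the late arrays of both lines overlapped. The SLC29A4 change was 2.20 (SE 0.607, adjusted p = 0.0363 in limma), and it missed the threshold in 11 of 27 fits with 1 array left out.

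In the remaining classes, SLC39A8 was the 1 called metal carrier. It encodes ZIP8, an importer of zinc and manganese, and read 9.77 to 11.32 (median 10.77) late in the SNAI1 line, against 9.33 and 9.45 at its 0 h and 9.14 to 9.53 in the control line. No late array overlapped with the others, and the change was 1.29 (SE 0.315, adjusted p = 0.019 in limma), with a second SLC39A8 probe at 1.52 (adjusted p = 0.0122 in limma). SLC46A3, a lysosomal transporter grouped with vitamin and heme carriers, read 4.80 to 5.46 (median 5.15) late in the SNAI1 line, against 6.73 and 7.31 at its 0 h and 6.19 to 7.52 in the control line. The groups did not overlap and the change was -2.38 (SE 0.439, adjusted p = 0.00315 in limma). The antisense transcript SLC67A1-AS changed by -1.47 (SE 0.38, adjusted p = 0.0262 in limma). Over all called genes, the late SNAI1 arrays lay entirely below the SNAI1 0 h and control arrays for 15 of the 22 lower genes. Of all 243 members 22 lay entirely below, against 6.14% of all genes tested, and 4 lay entirely above, against 6.03% of all genes tested. Of the 22 lower genes, 12 were still detected on all 6 late arrays, 9 on some of them and SLC2A5 on none.

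**Figure D2:**
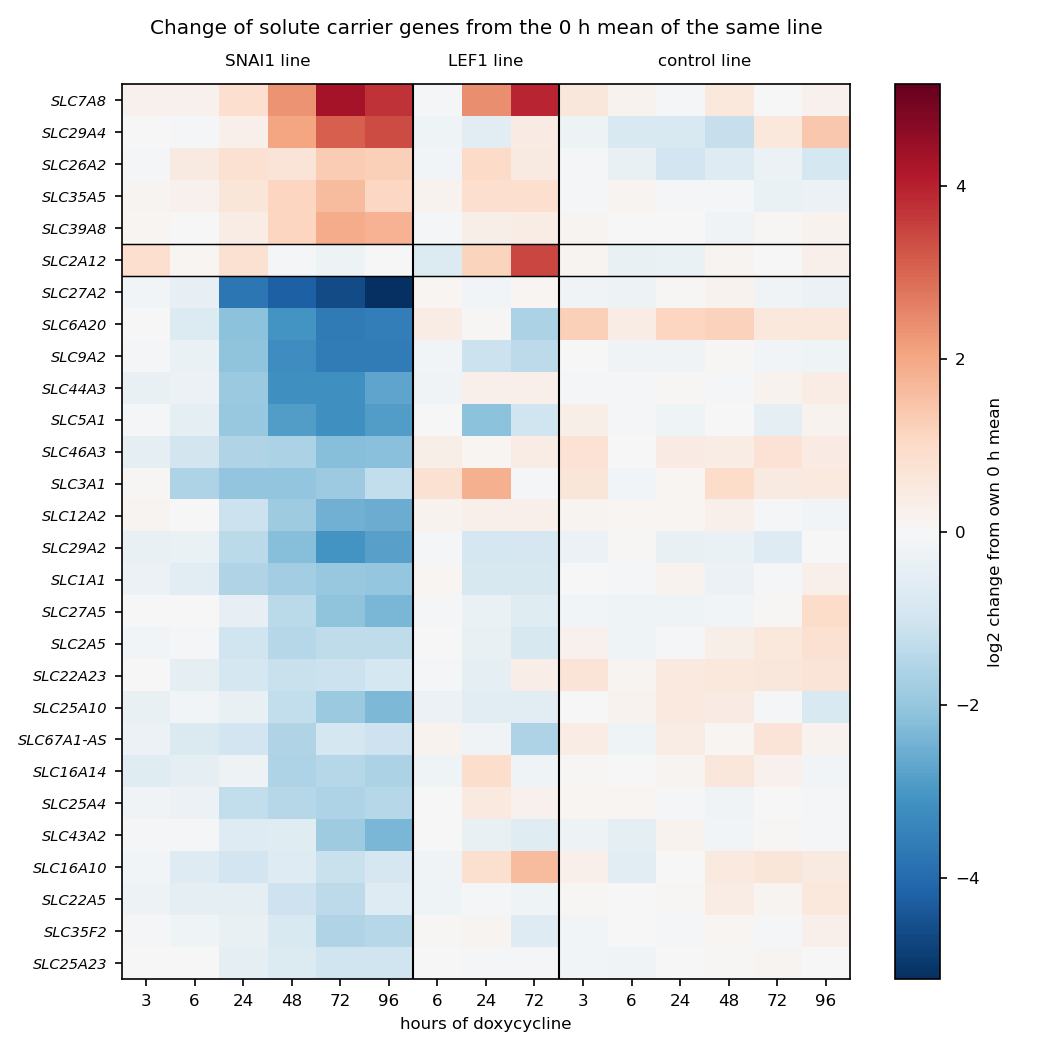
Change from the 0 h mean of the same line (log2, colour) for the 28 solute carrier genes called late in the SNAI1 or LEF1 line, by hours of doxycycline in the SNAI1 line, the LEF1 line and the control line, without subtraction of the control line. Most genes lower in the SNAI1 line are already paler blue at 24 h, and SLC7A8 is red in both the SNAI1 and the LEF1 line.

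The changes built up over time. At 3 h and at 6 h no member was called in the SNAI1 line relative to control, nor was any of the 13510 genes (0.0%), while 4 members had an unadjusted p under 0.05 over the early times together. At 24 h 1 member was called, lower (0.178% of all genes were called, 0.0518% higher and 0.126% lower). At 48 h 1 was higher and 9 lower (2.95% of all genes were called, 1.33% higher and 1.62% lower). At 72 h 5 were higher and 15 lower (7.23% of all genes, 3.49% higher and 3.75% lower). At 96 h 7 were higher and 17 lower (9.6% of all genes, 4.46% higher and 5.14% lower). The 24 h and 72 h groups held 1 array each in the SNAI1 and control lines. At 48 h SLC27A2, SLC9A2, SLC44A3, SLC5A1, SLC12A2, SLC16A14, SLC2A5, SLC25A10 and SLC25A4 were called lower and SLC29A4 higher. Against the SNAI1 line's own 0 h, with no subtraction of the control line, falls were already seen on the 1 array at 24 h. The changes were -3.74 for SLC27A2, -2.08 for SLC9A2, -1.97 for SLC5A1, -1.91 for SLC44A3, -1.54 for SLC1A1, -1.29 for SLC25A4 and -1.13 for SLC12A2. These genes are named after their values were seen, and no member was called higher there. Outside the late calls, 4 genes reached the threshold as higher at single times and are named after their values were seen. They were SLC29A3, a lysosomal nucleoside transporter (1.64 at 72 h), SLC23A2, an ascorbate transporter (2.15 at 96 h), SLC12A4, the potassium-chloride cotransporter KCC1, and SLC16A4, a member of the monocarboxylate family. SLC12A8, a member of the cation-chloride cotransporter family, was lower at 96 h (-1.45). The SLC12A4 level was 6.10 and 5.91 at 96 h in the SNAI1 line, against 4.76 and 4.46 at its 0 h and 4.46 to 4.72 on the control arrays. SLC12A4 was detected on 4 of 27 arrays and SLC16A4 on 3, all of them late arrays of the SNAI1 line. Both entered the gene set only through the arrays where they are high, so nothing is read from their calls. The counts of higher members given above include SLC12A4 at 72 h and both genes at 96 h.

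**Figure D3:**
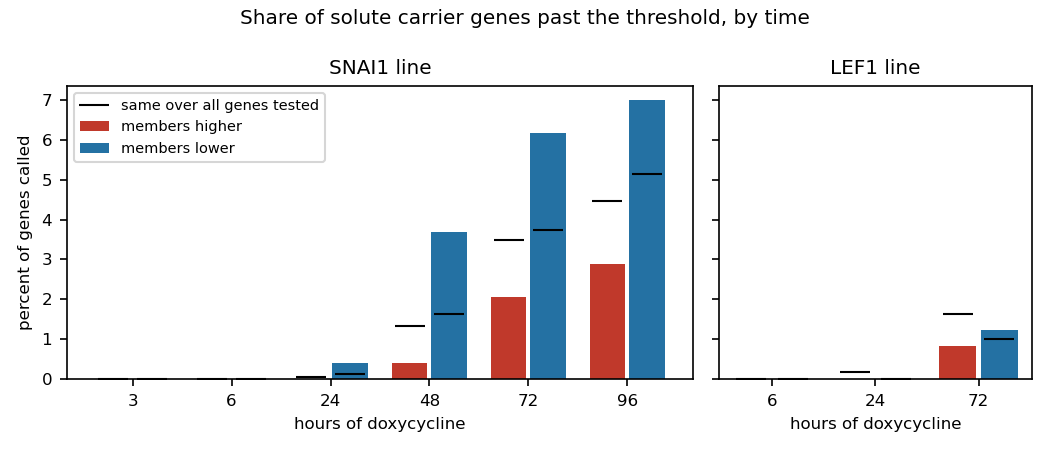
Percent of the 243 solute carrier genes called higher (red) or lower (blue) relative to the control line at each time, with the percent over all 13510 genes as black dashes, in the SNAI1 line and the LEF1 line. In the SNAI1 line the lower calls reach 7% at 96 h and lie above the share of all genes from 24 h, and the higher calls lie below it from 24 h.

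The late effect was also set against the early effect (3 and 6 h) in the SNAI1 line. Late minus early, 18 members were lower and 5 higher, 9.47% of the members against 8.29% of all genes (4.36% lower, 3.93% higher). The largest differences were in SLC27A2 (-4.32, adjusted p = 6.03e-06 in limma), SLC9A2 (-2.92), SLC6A20 (-2.78, adjusted p = 0.0466 in limma), SLC44A3 (-2.67) and SLC5A1 (-2.21) among those lower. Those higher were SLC7A8 (2.76, adjusted p = 0.000313 in limma), SLC26A2 (1.30), SLC39A8 (1.28), SLC35A5 (1.18) and SLC12A4. SLC12A4 is among the 5 counted but was detected only on late arrays of this line, so nothing is read from its call. Of the 27 genes called late, 19 were also called in this comparison. The control line itself showed no member called late against its 0 h (0.0% of all genes; 7 members at an unadjusted p under 0.05). At 0 h, before doxycycline, no member differed past the threshold between the SNAI1 and control lines (0.0074% of all genes; 8 members at an unadjusted p under 0.05) or between the LEF1 and control lines (0.0222% of all genes, 0.0148% higher; 20 members at an unadjusted p under 0.05).

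**Figure D4:**
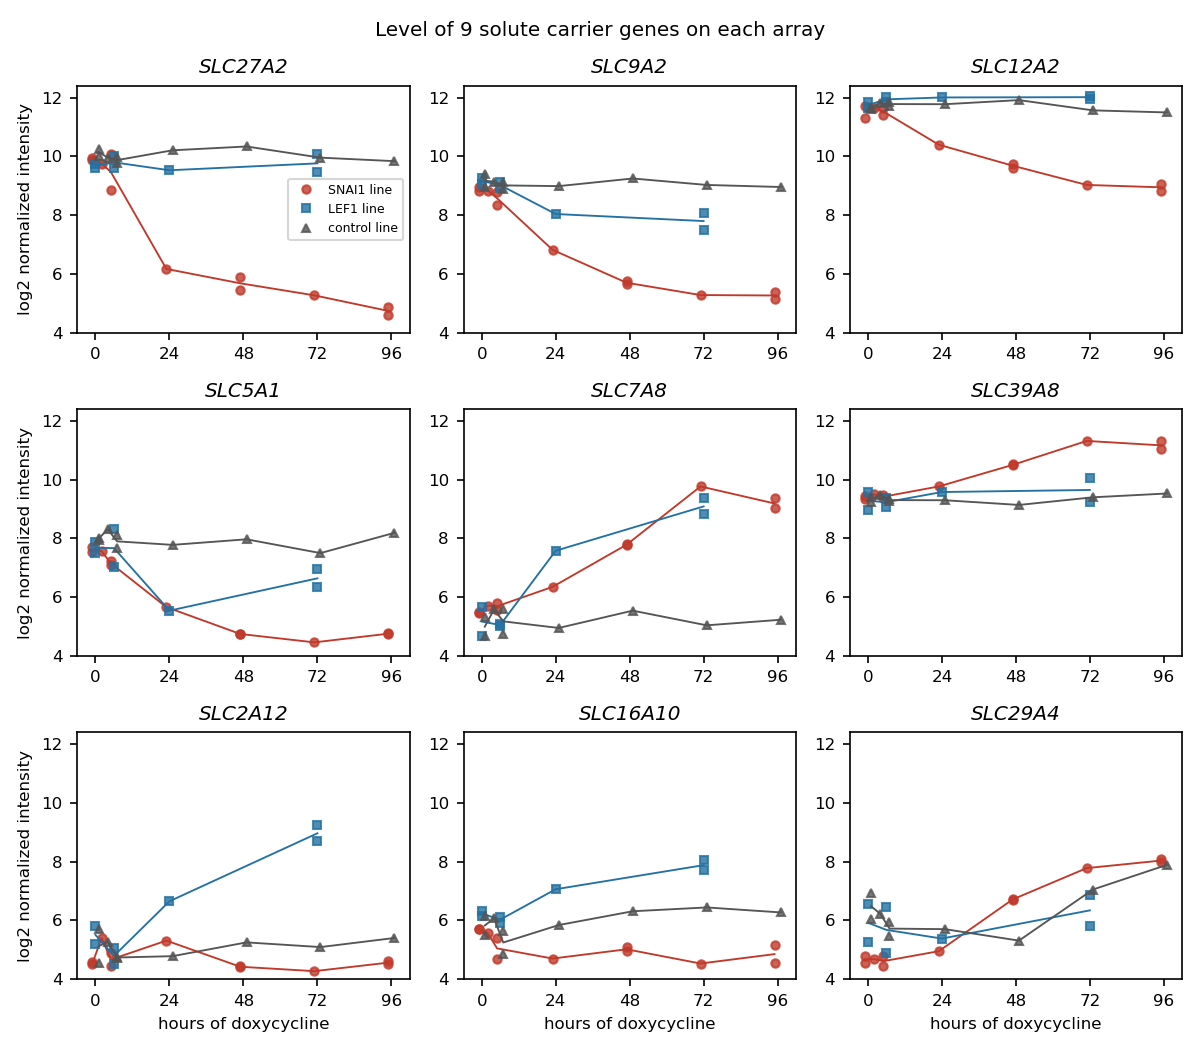
Log2 normalized intensity of 9 solute carrier genes on every array against hours of doxycycline in the SNAI1 line (red circles), the LEF1 line (blue squares) and the control line (grey triangles); lines join group means and points are shifted sideways by line. SLC27A2, SLC9A2, SLC12A2 and SLC5A1 are below the control arrays in the SNAI1 line from 24 h, SLC7A8 is above them in both induced lines, and SLC2A12 is above them in the LEF1 line only.

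In the LEF1 line, 2 members were called late, both higher (0.823% of members, against 0.888% of all genes higher and 1.15% called), and none at 6 h (0.0% of all genes; 6 members at an unadjusted p under 0.05). SLC7A8 read 7.58 at 24 h and 9.36 and 8.82 at 72 h in the LEF1 line, against 4.66 and 5.68 at its 0 h and 4.68 to 5.60 on the control arrays. The late arrays were above all of these, and the change was 3.17 (SE 0.473, adjusted p = 0.00394 in limma). SLC2A12 encodes GLUT12, a facilitative glucose transporter, and read 6.65 at 24 h and 9.24 and 8.69 at 72 h in the LEF1 line, against 5.82 and 5.19 at its 0 h and 4.55 to 5.69 on the control arrays. Its change was 2.49 (SE 0.462, adjusted p = 0.0166 in limma). On the 6 late arrays of the SNAI1 line it lay at 4.27 to 5.31, and it was detected neither there nor at 0 h in that line. With replicate number as a block within each line, the SLC2A12 change was 2.14 (adjusted p = 0.0589 in limma). In the control line the same replicate number falls in different array sets at 0 and 6 h. Each of the times 24 and 72 h had 1 control array, and without the control 72 h array neither gene passed (SLC7A8 adjusted p = 0.215, SLC2A12 adjusted p = 0.653 in limma). At 72 h alone SLC7A8 (3.88) and SLC2A12 (3.49) were higher, and SLC67A1-AS (-2.25), SLC25A43, a mitochondrial carrier (-1.78), and SLC45A3, a sugar transporter family member (-1.65), were lower, 5 members in all (2.06%, against 2.64% of all genes, 1.63% higher and 1.01% lower). At 24 h no member was called (0.178% of all genes, 0.17% higher and 0.0074% lower).

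The SLC2A12 promoter window is printed because LEF1 binds TCF/LEF letters, searched as CTTTGAA or CTTTGAT and as the pair CTTTGTA or CTTTGTT on both strands. It lies at chr6:134052575-134052874 (minus strand, GRCh38.p14, RefSeq) and holds 2 matches, in capitals, that start at -215 and -9.
SLC2A12: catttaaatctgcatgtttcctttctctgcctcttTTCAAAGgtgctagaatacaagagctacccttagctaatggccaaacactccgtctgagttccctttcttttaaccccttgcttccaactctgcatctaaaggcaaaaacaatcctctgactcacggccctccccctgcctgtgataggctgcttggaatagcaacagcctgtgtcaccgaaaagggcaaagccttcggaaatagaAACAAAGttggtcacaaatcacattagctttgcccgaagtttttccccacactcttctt
At least 1 such match was in a window of 16.4% of all genes of the table and 14.4% of members with a window. None of the SLC7A8 windows held these letters or the E-box, and neither did the SLC29A4 window. The windows of these 2 genes were also planned for printing and are not shown.

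**Figure D5:**
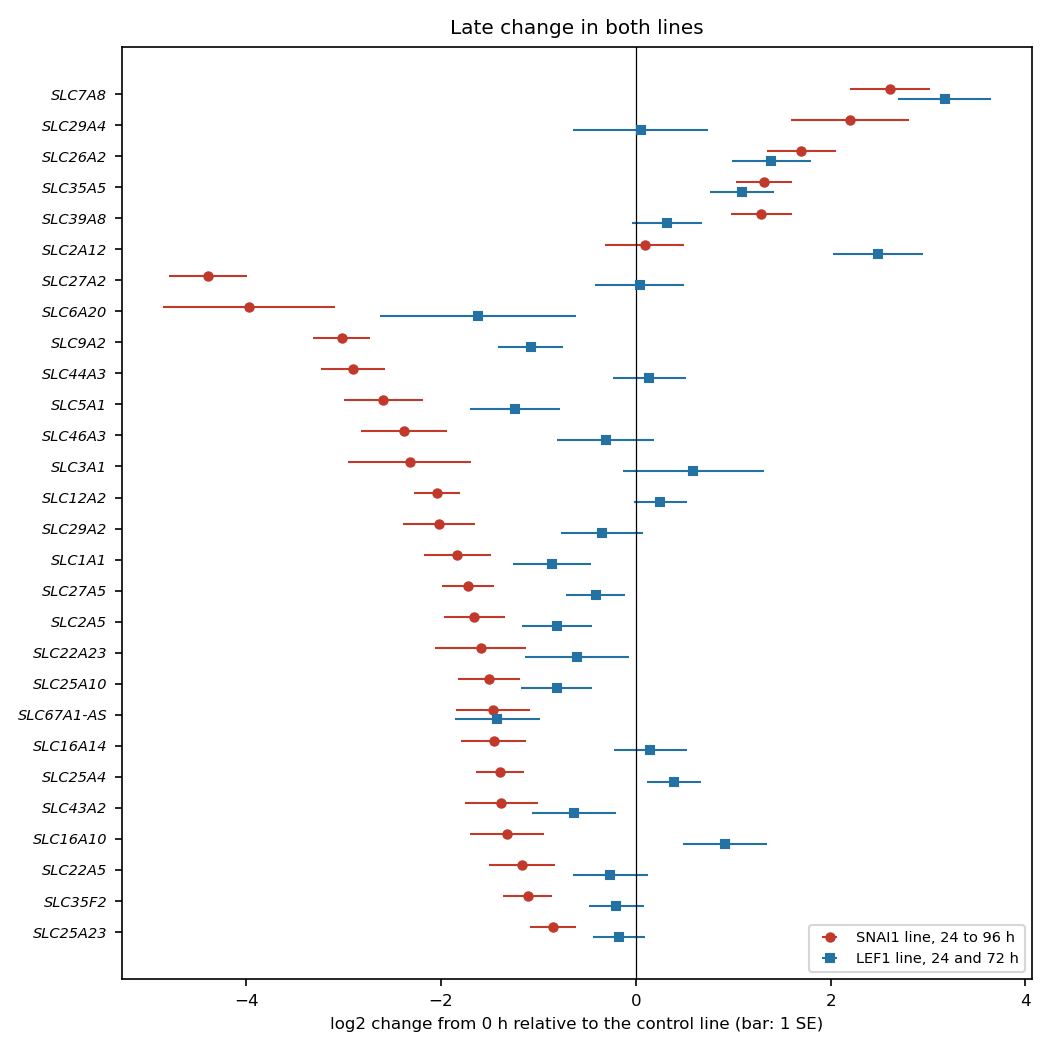
Late change from 0 h relative to the control line (log2, bars of 1 SE) in the SNAI1 line (red circles) and the LEF1 line (blue squares) for the 28 solute carrier genes called in either line. Both comparisons use the same control arrays. SLC27A2 is at -4.39 in the SNAI1 line and 0.04 in the LEF1 line, and SLC7A8 is at 2.61 in the SNAI1 line and 3.17 in the LEF1 line.

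The difference between the lines was tested over 24 and 72 h, the late times that both have, and the SNAI1 line was lower for 8 members and higher for none (3.29% of members lower; of all genes 1.72% were lower and 1.01% higher, 2.73% together). These were SLC27A2 (-4.16, SE 0.455, adjusted p = 0.000236 in limma), SLC44A3 (-2.81, SE 0.374, adjusted p = 0.000926 in limma), SLC16A10 (-2.34, SE 0.432, adjusted p = 0.00857 in limma), SLC46A3 (-2.14), SLC12A2 (-2.07, SE 0.272, adjusted p = 0.000863 in limma), SLC2A12 (-2.05), SLC25A4 (-1.81) and SLC9A2 (-1.60). For SLC27A2 the LEF1 line read 9.53 at 24 h and 10.07 and 9.46 at 72 h, against 9.75 and 9.61 at its 0 h. For SLC12A2 it read 12.01 at 24 h and 11.97 and 12.07 at 72 h, against 11.84 and 11.66 at 0 h. The late LEF1 arrays of both genes thus lay near their own 0 h. A second SLC12A2 probe gave a difference between the lines of -2.32, which did not pass (adjusted p = 0.093 in limma). For SLC25A4 the second probe gave -1.99 (adjusted p = 0.0211 in limma). SLC16A10 read 4.70 at 24 h and 4.53 at 72 h in the SNAI1 line, against 5.69 and 5.72 at its 0 h. In the LEF1 line SLC16A10 read 7.06 at 24 h and 8.05 and 7.71 at 72 h, against 6.32 and 6.15 at its 0 h, and its change there relative to control was 0.92, which did not pass (adjusted p = 0.426 in limma). SLC9A2 changed by -1.08 in the LEF1 line relative to control, which did not pass (adjusted p = 0.176 in limma). Against the own 0 h of the LEF1 line, with no subtraction of the control line, both passed at 72 h: SLC16A10 was higher by 1.65 (adjusted p = 0.00435 in limma) and SLC9A2 lower, at -1.37 (adjusted p = 0.00281 in limma). Without the 1 SNAI1 array at 72 h, 1 of the 8 differences (SLC27A2) passed. SLC5A1 read 5.54 at 24 h and 6.33 and 6.95 at 72 h in the LEF1 line, against 7.49 and 7.87 at its 0 h, and neither its change (-1.24, adjusted p = 0.287 in limma) nor its difference between the lines (-0.98, adjusted p = 0.417 in limma) passed. For SLC26A2, SLC35A5 and SLC67A1-AS the differences between the lines were 0.30, 0.27 and -0.05, with SE of 0.406, 0.329 and 0.434.

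Against its own 0 h arrays, with no subtraction of the control line, the LEF1 line at 72 h had 7 members higher and 10 lower (7% of members, against 8.95% of all genes, 5.47% higher and 3.48% lower), most of which are not among its late calls. The genes named here were chosen after their values were seen. SLC16A9, a monocarboxylate family member that carries carnitine, read 5.52 and 6.06 at 72 h in the LEF1 line, against 7.92 and 7.73 at its 0 h (-2.03, adjusted p = 0.000579 in limma). Its control arrays read 6.66 to 7.65, above both 72 h arrays. SLC28A2, which encodes the concentrative purine nucleoside transporter CNT2, read 4.40 and 5.63 at 72 h in the LEF1 line, against 6.76 and 6.65 at its 0 h (-1.69, adjusted p = 0.01 in limma). In the SNAI1 line SLC28A2 read 4.27 to 4.76 on the 6 late arrays, against 6.09 and 6.23 at 0 h and 5.93 to 7.21 on the control arrays. These groups did not overlap, but none of the 6 late arrays detected SLC28A2, which was at least 2.9-fold lower late than at 0 h in the SNAI1 line. Its late change relative to the control line did not pass (adjusted p = 0.095 in limma). SLC35E2B (1.40) and SLC35B4 were higher and SLC43A1, a neutral amino acid transporter (-1.23), was lower at 72 h against the own 0 h of the LEF1 line. SLC35B4 was detected on 0 of 2 LEF1 arrays at 0 h, and over 24 and 72 h it was at least 1.31-fold higher. SLC16A10 and SLC9A2, described above, are also among the genes called by this comparison.

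Transporters of the intestinal epithelium were followed as a list of 30, of which 21 are members. It was chosen, like the second list below, with earlier results of these data known. An excess over all genes could therefore come from that choice. Late in the SNAI1 line 6 fell (SLC27A2, SLC9A2, SLC5A1, SLC12A2, SLC1A1, SLC2A5) and SLC26A2 rose, with a median of -0.39, where 4.79% of all genes were lower and 3.89% higher. The other 14 did not pass. Among them, SLC26A6, an apical anion exchanger, changed by -0.83 (adjusted p = 0.208 in limma) and SLC19A1, the reduced folate carrier, by -0.75. SLC20A1, a phosphate transporter, changed by -0.42, and SLC9A3, the exchanger NHE3, by -0.29. The SLC9A3 probe was detected on 1 of the 6 late arrays of the SNAI1 line. Not all of the 14 went down: SLC35A1 averaged 9.89 late in the SNAI1 line and 9.4 at its 0 h. None of the 21 was called in the LEF1 line (median -0.15; 1.15% of all genes were called). Channels, pumps and regulators that work with these carriers were followed as a second list, of which 18 of 32 were tested. Late in the SNAI1 line 5 fell and 1 rose (median -0.85; the same all-gene shares apply), and in the LEF1 line 1 fell (median -0.53; 0.266% of all genes were lower). SCNN1A, the alpha subunit of the epithelial sodium channel, changed by -3.11 in the SNAI1 line (SE 0.304, adjusted p = 2e-05 in limma) and -0.22 in the LEF1 line (adjusted p = 0.88 in limma). CFTR, the apical chloride channel, changed by -3.81 in the SNAI1 line (SE 0.382, adjusted p = 2.23e-05 in limma) and -1.34 in the LEF1 line (adjusted p = 0.2 in limma). KCNQ1, a basolateral potassium channel, changed by -2.29 (adjusted p = 0.000235 in limma) in the SNAI1 line and -0.55 in the LEF1 line. GUCY2C, the guanylin receptor that raises cyclic GMP, fell in both lines, with changes of -2.29 in the SNAI1 line (adjusted p = 0.00228 in limma) and -2.47 in the LEF1 line (adjusted p = 0.0166 in limma).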

How the data were processed

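The authors deposited log2 probe intensities before any normalization between arrays, a detection p-value for each of them (per the file headers), and a quantile-normalized log2 matrix. That they are log2 follows from their range. Which scanner software and summarisation were used is not stated in the labels or headers. RNA was turned into biotinylated cRNA for Illumina arrays, per the labels' protocols. Intensities were background corrected and quantile normalized with neqc (offset 16, negative controls inferred from the detection p) in limma 3.58.1 on R 4.3.3. Of 47323 probes, 32 had missing values and were left out. The platform annotation gives 1 gene for 30092 probes, several for 8 and none for 17191. Only probes that 2 or more arrays detected (p under 0.01) were used, and among several for a gene the one of highest mean in the authors' matrix, which gave 13510 genes. Limma fitted 1 mean per group of line and time (9 residual and 4.91 prior degrees of freedom), so groups of 1 array take their spread from the others. The number of arrays limits the precision. One LEF1 array titled 6 h has 0 h in its time field and was taken as 6 h. Same-numbered LEF1 arrays deviated together (correlations 0.473 to 0.525 over 3 pairs), those of the SNAI1 line did not (-0.0137 to 0.129), and the control pair gave -0.436. The substrate classes follow family membership, except for some genes placed individually. The members and lists were chosen with earlier results of these data known. Named genes are the 12 largest rises and falls late in each induced line, 5 and 5 in other comparisons, up to 3 per class, the intestinal list and 4 partners. SLC16A14, SLC22A23, SLC43A2, SLC22A5 and the genes of single times were added to complete counts. Alternatives covered the background correction, normalization, filter, probe choice, moderation, array set, replicate block, control subtraction and left-out arrays. The steps were tested on simulated data.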

Additional observations from a re-analysis of the deposited data

Results flagged for a closer look

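The late change differed between the SNAI1 and LEF1 lines, by a test of the difference itself in limma, for 8 solute carrier genes. The SNAI1 minus LEF1 difference was -4.16 for SLC27A2, -2.81 for SLC44A3, -2.34 for SLC16A10, -2.14 for SLC46A3, -2.07 for SLC12A2, -2.05 for SLC2A12, -1.81 for SLC25A4 and -1.60 for SLC9A2 on the log2 scale. All LEF1 arrays belong to array set 2 and all SNAI1 arrays to array set 1, so line and set cannot be told apart here. Each change was taken from the line's own 0 h arrays, which lie in the same set, and no control array enters the estimated difference. With array set as a block 12 members differed. No group held 4 or more arrays, so no single array was tested as standing apart.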

How the results depend on the processing

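Many called genes lost their call under at least 1 alternative. Of 27 genes called late in the SNAI1 line, 18 passed in every other setting, 13 in every fit with 1 array left out, and 13 in all; the 13 include SLC27A2, SLC9A2, SLC44A3, SLC5A1, SLC12A2 and SLC7A8. Of the 8 differences between the lines 1 (SLC27A2) passed in all, and of the 2 LEF1 calls none did. Of 10 late minus early calls followed, 5 did. The sizes of SNAI1 late changes also moved over the 16 other settings. They were -4.5 to -2.98 for SLC27A2, -3.03 to -1.64 for SLC44A3, -2.72 to -1.25 for SLC5A1 and 1.67 to 2.97 for SLC7A8. The SNAI1 late count was 23 to 33 in settings that kept the control subtraction. Against the lines' own 0 h, with no control subtraction, the counts were 48 for the SNAI1 line late, 16 for the LEF1 line late and 47 for late minus early. Within array set 1 late minus early gave 35. Array set 2 alone against its own 0 h, chosen after seeing the data, gave 5 LEF1 late calls. The replicate block within each line gave 24, 2 and 8 calls for SNAI1 late, LEF1 late and their difference. With array set as a further block it gave 9 LEF1 late calls, 21 differences and 50 late minus early calls. The block in the LEF1 line only, where the numbers pair, together with array set and chosen after seeing the data, gave 6 LEF1 late calls, 20 differences, 39 late minus early calls and 1 SNAI1 against control difference at 0 h. The control line's numbers at 0 and 6 h cross the array sets; the crossed pairing is the same fit as array set as a block, with 23 SNAI1 late and 3 LEF1 late calls. The cause of these shifts was not tested.

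With 1 array left out in turn, the counts were 15 (without SNAI1 0 h replicate 2) to 45 (without control 0 h replicate 1) for SNAI1 late, 0 (without control 72 h) to 5 (without control 24 h or LEF1 24 h) for LEF1 late, 1 (without SNAI1 72 h) to 15 (without SNAI1 24 h or LEF1 24 h) for the difference, 16 to 35 (without control 24 h or SNAI1 24 h) for late minus early, and 0 to 11 (without control 0 h replicate 1) for SNAI1 against control at 0 h.

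Sign changes occurred only in genes of the SNAI1 late comparison that were not called. With array set as a block, alone or with the LEF1 block, the values were 0.23 for SLC4A2, 0.06 for SLC39A4, -0.48 for SLC39A5 and 0.11 for SLC30A10. With both blocks they were 0.27, 0.04, -0.94 and 0.07, with 0.10 for SLC44A4 and -0.02 for SLC35A1. Within array set 1 they were 0.25 for SLC4A2, 0.03 for SLC39A4, -0.92 for SLC39A5, 0.07 for SLC30A10, 0.07 for SLC44A4, 0.02 for SLC46A1 and -0.03 for SLC35A1. SLC39A5 was -0.09 with the replicate block, and SLC6A7 was 0.09 against the own 0 h. With 1 array left out the ranges were -0.80 to 0.25 for SLC4A2, -0.15 to 0.10 for SLC39A4, -0.92 to 1.65 for SLC39A5, -0.28 to 0.07 for SLC30A10, -0.31 to 0.07 for SLC44A4, -0.72 to 0.02 for SLC46A1, -0.03 to 0.65 for SLC35A1 and -1.02 to 0.44 for SLC9A3.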
